A study of Homo sapiens with 6 samples.

Results

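The genes described here encode the chaperones, folding enzymes, degradation factors and sensors by which cells meet stress of the endoplasmic reticulum (ER). They are HSPA5, HSP90B1, CALR, DNAJB9, SDF2L1, PDIA4, HERPUD1, EDEM1, ERN1 and ATF6, chosen by gene name from the deposited table. All 10 listed genes were found with at least 10 counts in every library, among 20333 gene intervals in all. The assay was PRO-seq, a precision nuclear run-on: polymerases already at work on DNA are made to take up a label after the cells are opened, and the labelled RNA is sequenced, so that reads report ongoing transcription.

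T47D, a long-established line of luminal breast cancer that the labels call estrogen receptor positive and HER2 negative, was used in medium with complete growth factors. All arms share this line, the medium and an exposure of 5 h. The DMSO arm received solvent, the GDC0068 arm 500 nM of an inhibitor of AKT kinase activity, and the Degrader arm 100 nM of INY-05-040, a compound that leads to degradation of AKT. Each arm had 2 libraries, from 2 independent experiments. The line stands for 1 tumour, and the compounds were compared at different doses, chosen by the submitters for like suppression of downstream signalling.

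Proteins that enter the ER are folded by chaperones, with disulfide bonds set by protein disulfide isomerases, and those that fail are returned to the cytosol for degradation (ER-associated degradation, ERAD). When unfolded proteins build up, the sensors IRE1 (encoded by ERN1), ATF6 and PERK (EIF2AK3) start the unfolded protein response. IRE1 splices the messenger of XBP1, ATF6 is cut in the Golgi into an active transcription factor, and PERK slows translation and favours that of ATF4. XBP1 and ATF6 then raise genes of folding and ERAD, while AKT signalling acts on the supply of new protein through mTOR.

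Of the 10 genes, 1 was called in each drug arm against DMSO, where 15.3% of all genes were called under Degrader and 3.58% under GDC0068. Under Degrader SDF2L1 fell by 0.45 on the log2 scale, from 11.2 ± 0.91 to 8.19 ± 0.31 CPM (counts scaled to library size; SD, n = 2; edgeR adjusted p = 0.0282). Under GDC0068 DNAJB9 rose by 0.45, from 9.84 ± 0.87 to 13.5 ± 0.24 CPM (edgeR adjusted p = 0.0455). The major chaperones HSPA5, HSP90B1 and CALR differed from DMSO by at most 0.11 on the log2 scale in either drug arm. They were not called in this fit, which did not pair the libraries by experiment. A gene was called where the edgeR quasi-likelihood test gave a Benjamini-Hochberg adjusted p under 0.05 over all 19902 genes tested. The replicate number was taken to mark the independent experiment, which the labels do not state outright. When it entered the fit as a block, 6 of the 10 genes were called under Degrader, against 30.7% of all genes. HSPA5, which was lower, was among the 6, while HSP90B1 and CALR were not. Differences given within the experiments pair libraries by the same number.

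The promoters are shown first because the stress elements in them are the best-known link among these genes. The stretches printed are the 250 bases before the RefSeq start (build GRCh38.p14), written 5′ to 3′ along the gene, for the 5 genes with an exact match and for DNAJB9, the gene that rose. Capitals mark an exact match, on either strand, to the ER stress element (ERSE), in which CCAAT and CCACG are held 9 bases apart, or to its second form (ERSE-II), in which ATTGG and then CCACG are held 1 base apart. Since ATTGG is the other strand of CCAAT, matches to CCAAT or to CCACG inside an element are also counted on their own.
HSPA5, chr9:125241344-125241593, minus strand: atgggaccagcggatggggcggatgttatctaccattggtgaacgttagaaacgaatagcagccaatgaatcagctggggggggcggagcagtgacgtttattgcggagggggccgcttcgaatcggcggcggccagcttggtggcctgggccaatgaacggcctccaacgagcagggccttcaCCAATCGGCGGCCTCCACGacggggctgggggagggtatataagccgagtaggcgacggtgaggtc
HSP90B1, chr12:103930160-103930409, plus strand: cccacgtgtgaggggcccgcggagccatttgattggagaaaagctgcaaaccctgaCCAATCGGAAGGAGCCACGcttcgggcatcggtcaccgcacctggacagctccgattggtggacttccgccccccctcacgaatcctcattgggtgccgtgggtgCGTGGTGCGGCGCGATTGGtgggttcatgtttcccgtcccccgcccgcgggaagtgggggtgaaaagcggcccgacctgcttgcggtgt
CALR, chr19:12938359-12938608, plus strand: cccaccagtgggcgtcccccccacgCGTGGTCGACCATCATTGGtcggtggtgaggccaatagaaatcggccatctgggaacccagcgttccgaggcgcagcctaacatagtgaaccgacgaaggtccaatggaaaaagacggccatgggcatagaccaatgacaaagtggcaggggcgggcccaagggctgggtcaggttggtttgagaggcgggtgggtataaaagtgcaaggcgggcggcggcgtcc
SDF2L1, chr22:21642052-21642301, plus strand: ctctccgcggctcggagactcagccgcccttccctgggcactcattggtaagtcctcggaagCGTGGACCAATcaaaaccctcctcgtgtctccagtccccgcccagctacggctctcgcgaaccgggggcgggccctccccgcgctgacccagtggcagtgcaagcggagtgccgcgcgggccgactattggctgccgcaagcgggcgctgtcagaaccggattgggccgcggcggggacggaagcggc
HERPUD1, chr16:56931892-56932141, plus strand: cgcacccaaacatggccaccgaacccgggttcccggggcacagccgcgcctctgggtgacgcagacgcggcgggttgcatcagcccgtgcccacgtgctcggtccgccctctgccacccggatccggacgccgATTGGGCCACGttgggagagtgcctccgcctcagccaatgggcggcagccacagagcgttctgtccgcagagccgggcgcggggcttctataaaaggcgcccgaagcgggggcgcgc
DNAJB9, chr7:108569624-108569873, plus strand: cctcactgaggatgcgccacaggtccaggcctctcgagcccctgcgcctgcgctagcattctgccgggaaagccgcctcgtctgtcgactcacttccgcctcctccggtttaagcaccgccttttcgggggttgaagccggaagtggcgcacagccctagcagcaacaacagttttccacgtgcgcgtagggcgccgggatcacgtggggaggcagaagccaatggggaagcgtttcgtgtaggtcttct

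ERSE was matched in HSPA5, CALR and HSP90B1, the last with 2 matches, and in 0.0740% of the 35116 RefSeq promoters. ERSE-II was matched in SDF2L1 and HERPUD1, and in 0.0513% of promoters. CCACG, inside an element or not, stood before 8 of the 10 genes. Of all promoters 33.5% held it, and 42.6% of those of genes in the deposited table. CCAAT stood before 9, against 32.01% and 33.1%. GC content was 47.2% (ATF6) to 78.8% (EDEM1) in the 10 windows, against a median of 58% over all promoters. Its part in these counts was not tested. The ATF6 and XBP1 core TGACGTG and the FOXO motif GTAAACA were matched in 0 of the 10 windows, and in 1.68% and 2.98% of promoters. TGATGCAA, one form of the element bound by ATF4 with its CEBP partners, was matched in HERPUD1, and in 0.772% of promoters. All motifs were searched on both strands, and a match only describes the letters. Start sites in the deposited table equal the RefSeq start for 5 of the 10 genes; that of EDEM1 lies at -317 bp from it, so its window is wholly inside the counted interval.

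**Figure D1:**
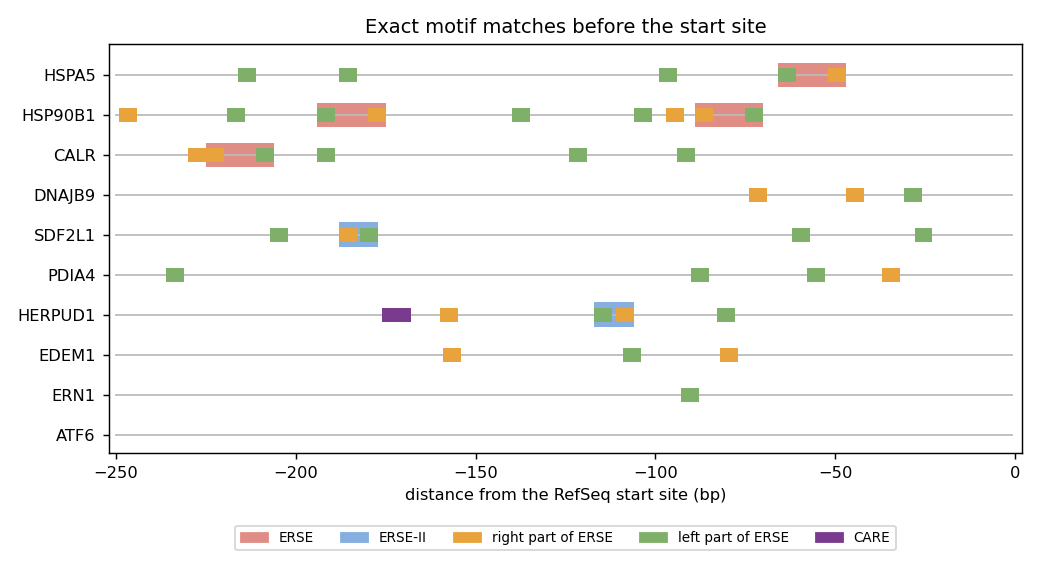
Each row is the 250 bp window before the RefSeq start of 1 gene, with the distance from the start in bp on the horizontal axis and exact matches on either strand as boxes. Tall pale boxes are full elements, ERSE in HSPA5, HSP90B1 and CALR and ERSE-II in SDF2L1 and HERPUD1. Small boxes are parts of the element or the ATF4 and CEBP form (CARE, in HERPUD1), and ATF6 has none.

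The 6 libraries held 25371819 to 32192576 counts, with replicates of an arm correlating across genes at Pearson's r of 0.996 to 0.997 on the log2 scale. Of the luminal markers, GATA3 gave 66.2, KRT19 185, KRT18 72.9, FOXA1 47.4 and ESR1 4.06 CPM per kb in DMSO. The others were KRT8 with 9.17, PGR with 8.96, CDH1 with 3.60 and EPCAM with 1.88 CPM per kb, the last at percentile 53.5 of all genes tested. ERBB2, which encodes HER2, gave 6.12 CPM per kb. No values are given here for markers of basal, stromal, immune and endothelial cells, so their absence was not shown. In bulk libraries a change in the share of cells and a change in RNA per cell cannot be told apart. All values are relative to the bulk of genes, so a change common to all transcription was not measured.

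Levels were compared between genes only per interval length. In DMSO HSPA5, the main Hsp70 chaperone of the ER, stood highest with 15.3 ± 0.96 CPM per kb (SD, n = 2), followed by the lectin chaperone CALR with 13.6 ± 1.7, and the libraries of this pair overlapped. SDF2L1 had 5.69 ± 0.46, HSP90B1 4.92 ± 0.34, HERPUD1 3.50 ± 0.29, EDEM1 2.26 ± 0.053, DNAJB9 2.00 ± 0.18 and PDIA4 1.83 ± 0.027 CPM per kb. The sensors were lowest, ERN1 at 0.900 ± 0.050 and ATF6 at 0.692 ± 0.043 CPM per kb, 22.2-fold between HSPA5 and ATF6. Both sensors have the longest intervals of the set, 91003 bp for ERN1 and 197747 bp for ATF6. Before division by length, ATF6 had the highest DMSO mean of the set, 137 CPM. How far interval length shapes this order was not tested. HSPA5 lay at percentile 95.4 of all genes tested and ATF6 at percentile 23.7. Below CALR no neighbours in this order had overlapping DMSO libraries, although SDF2L1 and HSP90B1 (1.16-fold), EDEM1 and DNAJB9 (1.13-fold) and DNAJB9 and PDIA4 (1.09-fold) were close. Under Degrader the SDF2L1 libraries, at 4.07 and 4.29 CPM per kb, lay below those of HSP90B1, at 4.64 and 4.98.

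**Figure D2:**
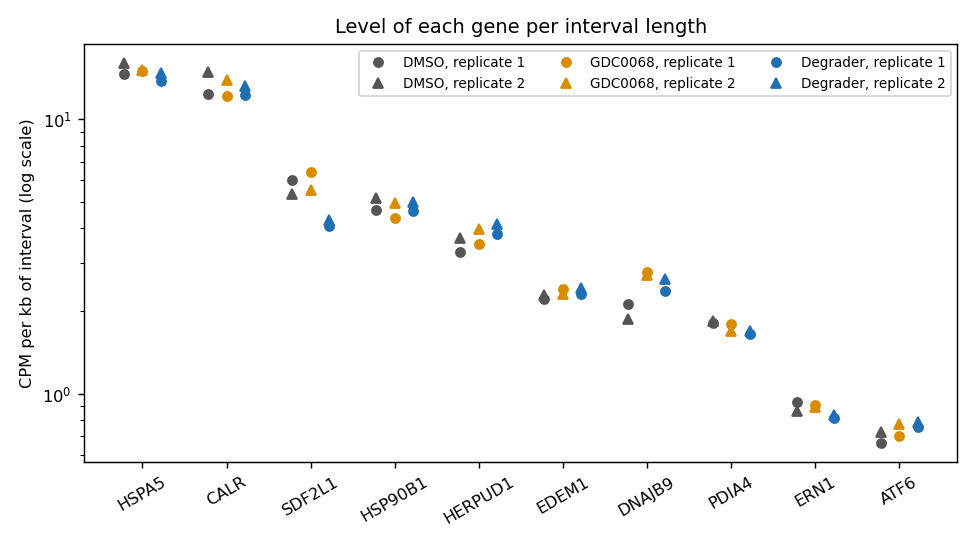
CPM per kb of interval (log axis) for each gene, ordered by its DMSO mean, with colour for the arm and symbol for the replicate. HSPA5 and CALR lie at 12.1 CPM per kb or more in every library and the sensors ERN1 and ATF6 below 1, and the 2 Degrader libraries of SDF2L1 lie below its 4 others.

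Among the abundant chaperones, HSPA5 (chromosome 9, 125234853 to 125241343, minus strand) binds exposed hydrophobic stretches of new proteins and holds the stress sensors inactive. Its libraries held 95.2 and 104 CPM for DMSO, 96.9 and 97.7 for GDC0068, and 89.3 and 95.4 for Degrader. Degrader replicate 2 lay just inside the DMSO range and replicate 1 below it. On the log2 scale Degrader differed from DMSO by -0.11 (SE 0.057, edgeR adjusted p = 0.235). GDC0068 differed by -0.03 (SE 0.057, edgeR adjusted p = 0.803). Within the experiments the Degrader difference was -0.09 and -0.12, and blocking on the replicate number made it a call (edgeR adjusted p = 0.0385). The GDC0068 difference was 0.03 in replicate 1 and -0.09 in replicate 2, so it had no common sign.

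HSP90B1 (chromosome 12, 103930410 to 103947926, plus strand) encodes GRP94, the Hsp90 chaperone of the ER. Its libraries gave 81.9 and 90.3 CPM for DMSO, 76.6 and 87.0 for GDC0068, and 81.2 and 87.3 for Degrader. The arms overlapped in every pairing. The log2 fold change was -0.03 under Degrader (95% confidence interval -0.19 to 0.12; edgeR adjusted p = 0.817) and -0.07 under GDC0068 (-0.23 to 0.08; edgeR adjusted p = 0.626). CALR (chromosome 19, 12938609 to 12944489, plus strand), which binds glycoproteins and calcium, gave 72.9 and 87.3 CPM for DMSO, 71.2 and 81.9 for GDC0068, and 72.3 and 77.7 for Degrader. Replicate 2 was the higher library in all arms. Its log2 fold change was -0.09 under Degrader (-0.28 to 0.10; edgeR adjusted p = 0.521) and -0.06 under GDC0068 (-0.25 to 0.13; edgeR adjusted p = 0.741). Without DMSO replicate 2 the sign of CALR turned under both drugs, to 0.04 and 0.07, and that of HSP90B1 under Degrader, to 0.04; without Degrader replicate 1 HSP90B1 was at 0.02. CALR overlaps AC092069.1 on the other strand over 372 bp. HSPA5 and HSP90B1 have processed pseudogenes elsewhere in the genome, so some reads could be assigned to another copy.

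DNAJB9 (chromosome 7, 108569920 to 108574850, plus strand) encodes ERdj4, a J-domain partner of HSPA5 that restrains IRE1 and is a target of spliced XBP1. It gave 10.5 and 9.23 CPM for DMSO, 13.6 and 13.3 for GDC0068, and 11.7 and 12.9 for Degrader. All drug-treated libraries lay above both DMSO libraries, and the GDC0068 libraries were highest. The rise under GDC0068 was 0.45 on the log2 scale (SE 0.109; 0.38 and 0.53 within the experiments; edgeR adjusted p = 0.0455), or 36.6% on the linear scale. Under Degrader the difference was 0.32 (SE 0.110; 0.16 and 0.48 within the experiments; edgeR adjusted p = 0.0739), and blocking on the replicate number made it a call (edgeR adjusted p = 0.0212). The GDC0068 call rested on few counts, 251 to 405 per library. It was lost without any 1 of the 6 libraries, also without a Degrader library, which lies outside this contrast. In each of those fits fewer of all genes were called too. The log2 fold change of DNAJB9 then ran from 0.37 to 0.54. With the DESeq2 test (adjusted p = 0.0689) and in the edgeR fit to the 4 libraries compared (adjusted p = 0.0631) the call was lost too. With the replicate block it was kept (edgeR adjusted p = 0.00273).

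SDF2L1 (chromosome 22, 21642339 to 21644299, plus strand) encodes a small ER protein that works in a complex with HSPA5 and its J-domain partners. It gave 11.8 and 10.5 CPM for DMSO, 12.5 and 10.8 for GDC0068, and 7.97 and 8.41 for Degrader. Both Degrader libraries lay below all 4 others, and the GDC0068 and DMSO libraries overlapped. The fall under Degrader was a log2 fold change of -0.45 (SE 0.120; -0.57 and -0.32 within the experiments; edgeR adjusted p = 0.0282), that is, a linear change of -26.7% (95% confidence interval -38.9% to -12.1%). Under GDC0068 the difference was 0.06 (95% confidence interval -0.19 to 0.32; edgeR adjusted p = 0.816). The interval is the shortest of the 10, 1961 bp with 229 to 379 counts per library, at which counting error alone reaches 6.61%. The Degrader call was lost without DMSO replicate 1 (log2 fold change -0.36, edgeR adjusted p = 0.197), Degrader replicate 1 (-0.41, edgeR adjusted p = 0.122) or Degrader replicate 2 (-0.49, edgeR adjusted p = 0.103).

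PDIA4 (chromosome 7, 149003062 to 149028503, minus strand) encodes ERp72, a disulfide isomerase. It gave 46.0 and 47.01 CPM for DMSO, 45.8 and 43.2 for GDC0068, and 41.8 and 43.2 for Degrader. Both drug arms lay below DMSO without overlap. Degrader differed from DMSO by -0.13 on the log2 scale (SE 0.060, edgeR adjusted p = 0.172), GDC0068 by -0.06 (SE 0.060, edgeR adjusted p = 0.603), and neither was called with the replicate block.

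Of the ERAD members, HERPUD1 (chromosome 16, 56932142 to 56943881, plus strand) encodes a membrane protein that assembles the ubiquitin ligase complex of ERAD. Its libraries held 38.6 and 43.4 CPM for DMSO, 41.1 and 46.7 for GDC0068, and 44.9 and 48.8 for Degrader. Replicate 2 exceeded replicate 1 in every arm, and both Degrader libraries lay above both DMSO libraries. The log2 fold change was 0.19 under Degrader (SE 0.080; 0.22 and 0.17 within the experiments; edgeR adjusted p = 0.130), a call once blocked on the replicate number (edgeR adjusted p = 0.00714), while GDC0068 differed by 0.10 (SE 0.081, edgeR adjusted p = 0.524). HERPUD1 and SDF2L1, the pair with an ERSE-II match printed above, had Degrader values of opposite sign. The HERPUD1 interval overlaps AC012181.1 and AC012181.2 on its own strand, over 1012 and 862 bp, so part of its reads could belong to either.

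EDEM1 (chromosome 3, 5187390 to 5219958, plus strand), which hands misfolded glycoproteins to ERAD, gave 72.3 and 74.7 CPM for DMSO, 78.4 and 75.5 for GDC0068, and 75.1 and 79.0 for Degrader. All drug-treated libraries lay above both DMSO libraries, but by little. The difference from DMSO was 0.07 on the log2 scale for Degrader (95% confidence interval -0.05 to 0.19; edgeR adjusted p = 0.428) and 0.07 for GDC0068 (-0.05 to 0.18; edgeR adjusted p = 0.533). With the replicate block EDEM1 was not called in either arm. A gene on the other strand, AC026202.3, overlaps it over 950 bp.

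The 2 sensors in the set had Degrader values of opposite sign. ATF6 (chromosome 1, 161766324 to 161964070, plus strand) gave 131 and 143 CPM for DMSO, 138 and 153 for GDC0068, and 149 and 156 for Degrader. Its Degrader libraries lay above both DMSO libraries, and its GDC0068 libraries overlapped them. The log2 fold change was 0.16 under Degrader (SE 0.062; 0.19 and 0.13 within the experiments; edgeR adjusted p = 0.106), a call once blocked on the replicate number (edgeR adjusted p = 8.08e-04). Under GDC0068 it was 0.09 (SE 0.062, edgeR adjusted p = 0.436). ERN1 (chromosome 17, 64039142 to 64130144, minus strand) gave 85.1 and 78.7 CPM for DMSO, 83.1 and 81.1 for GDC0068, and 74.2 and 76.2 for Degrader. Both Degrader libraries were lower than all others. Degrader differed from DMSO by -0.12 (SE 0.055; -0.20 and -0.05 within the experiments; edgeR adjusted p = 0.154), a call once blocked on the replicate number (edgeR adjusted p = 0.0299), while GDC0068 differed by 0.0019 (95% confidence interval -0.12 to 0.12; edgeR adjusted p = 0.991). ATF6 had 3517 to 4668 counts per library and ERN1 2112 to 2735, so counting error was at most 1.69% and 2.18%. ATF6 overlaps AL391825.1 on its own strand over 984 bp.

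**Figure D3:**
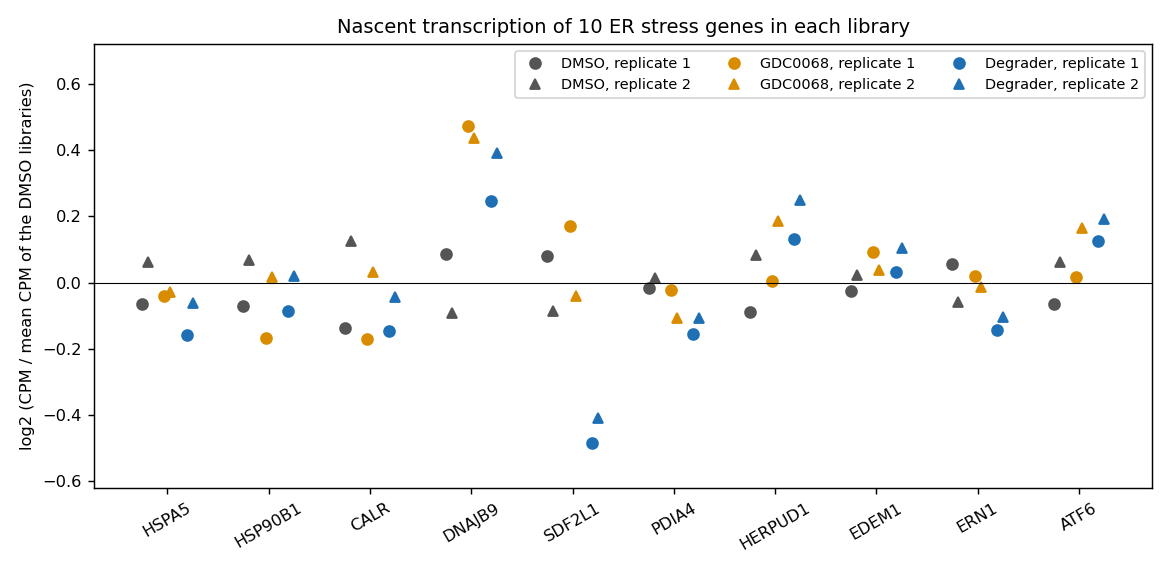
Each point is 1 library, as log2 of its CPM over the mean CPM of the 2 DMSO libraries of the same gene; colour gives the arm and symbol the replicate. DNAJB9 lies above DMSO in all 4 drug-treated libraries and SDF2L1 lies below in the 2 Degrader libraries, while HSP90B1 and CALR follow the replicate number more than the arm.

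Across the set, edgeR called 1 of 10 genes under Degrader (SDF2L1, lower), where 15.3% of all genes were called. With the replicate block it called 6 of 10, of which 3 were higher (DNAJB9, HERPUD1 and ATF6) and 3 lower (SDF2L1, HSPA5 and ERN1), against 30.7% of all genes (15.1% higher, 15.7% lower). DESeq2 called SDF2L1 alone, against 11.4% of all genes (5.41% higher, 6% lower). At an unadjusted p under 0.05, edgeR had 5 of 10 under Degrader, against 29.9% of all genes. Under GDC0068 1 of 10 was called (DNAJB9, higher), against 3.58% of all genes (1.7% higher, 1.88% lower). With the replicate block it was again 1, against 17.8% (8.87% higher, 8.91% lower), and with DESeq2 0, against 3.04% (1.37% higher, 1.67% lower). The median difference from DMSO on the log2 scale was -0.06 for Degrader, with 4 of 10 higher, and 0.03 for GDC0068, with 6 of 10 higher. Over all 19902 genes it was -0.0014 and 0.0099, with 9886 and 10473 higher. The Degrader median was 0.04 without DMSO replicate 2, -0.01 without Degrader replicate 1 and -0.12 without Degrader replicate 2. The GDC0068 median was 0.05 without DMSO replicate 2, 0.02 without DMSO replicate 1 and 0.0040 without GDC0068 replicate 2. Both libraries of the arm lay above both DMSO libraries for 4 genes and below for 3 under Degrader, against 29.3% and 29.2% of all genes (58.6% in all). Under GDC0068 there were 2 and 1, against 26.1% and 24% (50.1% in all). Summed over the 10 genes the libraries gave 645 and 688 CPM for DMSO, 658 and 691 for GDC0068, and 648 and 685 for Degrader. These sums followed the replicate number, and the arms overlapped. Both contrasts use the same DMSO libraries, so the values under the 2 drugs are not independent of each other.

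The drugs were then set against each other, at their different doses. SDF2L1 was lower under Degrader than under GDC0068 by a log2 fold change of -0.51 (95% confidence interval -0.77 to -0.25; -0.65 and -0.37 within the experiments; unadjusted p = 0.00123). This did not pass over all genes (edgeR adjusted p = 0.104), but became a call once blocked on the replicate number (edgeR adjusted p = 0.00314). DNAJB9, which had the higher value under GDC0068, differed by -0.13 (95% confidence interval -0.37 to 0.10; edgeR adjusted p = 0.606). ERN1 differed by -0.13 (-0.25 to -0.01; edgeR adjusted p = 0.332). For the other 7 genes the estimates ran from -0.08 for HSPA5 to 0.09 for HERPUD1, and the widest interval among the 3 abundant chaperones was that of CALR, -0.22 to 0.16. edgeR called 0 of 10 genes, where 0.266% of all genes were called, and DESeq2 also called 0 of 10. At an unadjusted p under 0.05 in edgeR there were 2, SDF2L1 and ERN1, against 14.1% of all genes. Over all genes 0.116% were called higher and 0.151% lower, and DESeq2 called 0.708% (0.276% higher, 0.432% lower). With the replicate block 1 of the 10 was called, against 10.4% of all genes (5.03% higher, 5.35% lower). Both Degrader libraries lay below both GDC0068 libraries for 5 genes (HSPA5, DNAJB9, SDF2L1, PDIA4 and ERN1) and above for 0, against 22.9% and 22.1% of all genes (45% in all).

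**Figure D4:**
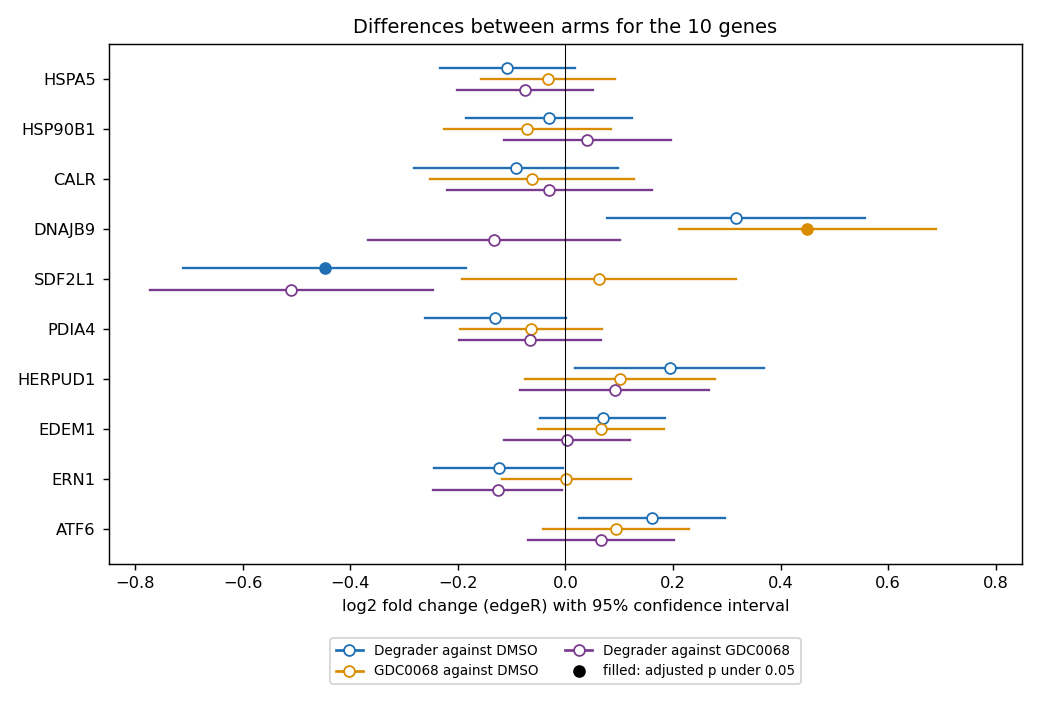
Points are edgeR log2 fold changes of the 3 contrasts and lines their 95% confidence intervals; filled points have an adjusted p under 0.05 without the replicate block. The filled points are SDF2L1 under Degrader (-0.45) and DNAJB9 under GDC0068 (0.45). Open points whose interval leaves 0 are DNAJB9, HERPUD1, ATF6 and ERN1 under Degrader. Between the drugs they are SDF2L1 (-0.77 to -0.25) and ERN1.

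The wider unfolded protein response was followed through 5 further lists. Of the sensors and transcription factors, 8 of 11 listed genes were tested, and under Degrader 3 rose and 0 fell, around a median of 0.15 on the log2 scale; over all genes 7.39% rose and 7.88% fell, or 15.1% and 15.7% with the replicate block. MBTPS1, the Golgi protease that makes the first cut in ATF6, rose from 289 ± 3.9 to 361 ± 17 CPM (log2 fold change 0.32, SE 0.065, edgeR adjusted p = 0.00760). CREB3L2, a relative of ATF6 that acts on secretory genes, rose by 0.19 (edgeR adjusted p = 0.0302), and the ATF6 paralog ATF6B rose by 0.20 (edgeR adjusted p = 0.0420). XBP1 gave 230.4 ± 11 CPM in DMSO, 266 ± 9.4 under GDC0068 and 259 ± 1.0 under Degrader, log2 fold changes of 0.21 and 0.17 that just missed the threshold (edgeR adjusted p = 0.0584 and 0.0543). Blocking on the replicate number made both calls (edgeR adjusted p = 2.90e-04 and 9.83e-04). EIF2AK3, the PERK gene, stood 0.14 higher under Degrader (edgeR adjusted p = 0.122; 0.0256 with the replicate block). Under GDC0068 edgeR called 0 of the 8, with 2 at an unadjusted p under 0.05, against 20% of all genes. There DESeq2 called 0 and the replicate block 2, the latter against 17.8% of all genes. The Degrader count was 1 with DESeq2, against 5.41% of all genes higher, and 6 with the replicate block, against 15.1%. Few or none were called without any 1 Degrader or DMSO library, and calls over all genes varied as well. The list median under Degrader then ran from 0.12 (without DMSO replicate 2) to 0.16 (without Degrader replicate 1).

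Folding genes outside the 10 were lower more often than higher under Degrader. Of 26 tested, 7 fell and 1 rose, and the median was -0.11, with 4 of 26 above 0. Over all genes 7.88% fell and 7.39% rose, and 9886 of 19902 were above 0. CRELD2, a secreted product of the stress response, fell from 42.2 ± 0.33 to 31.8 ± 2.5 CPM (log2 fold change -0.41, SE 0.081, edgeR adjusted p = 0.00701). PDIA5, a disulfide isomerase, fell by 0.33 (edgeR adjusted p = 0.00831). Under GDC0068 PDIA5 differed by -0.28 (edgeR adjusted p = 0.0504), which was a call with DESeq2 (adjusted p = 0.0311) and with the replicate block (edgeR adjusted p = 3.13e-05). CRELD2 differed there by -0.19 (edgeR adjusted p = 0.203; 0.0438 with the replicate block). UGGT1, which tests the folding of glycoproteins, changed by -0.25 under Degrader (edgeR adjusted p = 0.0121) and by -0.25 under GDC0068 (edgeR adjusted p = 0.0356). ERO1B, an oxidase that feeds the disulfide isomerases, went the other way: it rose from 33.2 ± 1.9 CPM to 42.7 ± 0.31 under Degrader (log2 fold change 0.36, edgeR adjusted p = 0.00397) and to 41.4 ± 0.61 under GDC0068 (0.32, edgeR adjusted p = 0.0269). Under GDC0068 the median over the list was -0.07, with 1 higher and 1 lower called, against 1.7% and 1.88% of all genes; blocking on the replicate number gave 1 and 9, against 8.87% and 8.91%, and DESeq2, or leaving out either Degrader replicate, gave 1 and 2. The 7 falls under Degrader became 10 with the block, against 15.7% of all genes, 4 without Degrader replicate 1, 2 without Degrader replicate 2 and 1 without DMSO replicate 1. Both GDC0068 calls were lost without any 1 DMSO or GDC0068 library.

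Genes of the translocon and of ER transport, of which 23 of 25 were tested, gave 6 falls and 0 rises under Degrader, around a median of -0.15, where 7.88% of all genes fell and 7.39% rose. SRPRA, the receptor of the signal recognition particle, fell by 0.24 (edgeR adjusted p = 0.0135), and KDELR2, which returns escaped chaperones such as HSPA5 to the ER, fell by 0.17 (edgeR adjusted p = 0.0313). SSR3, a translocon subunit, changed by -0.28 under Degrader (edgeR adjusted p = 0.0196) and by -0.33 under GDC0068 (edgeR adjusted p = 0.0269). Under GDC0068 it was the 1 gene of the list called, against 1.88% of all genes called lower, and the median was -0.09. The 6 falls under Degrader became 11 with the replicate block, against 15.7% of all genes lower, and 2 with DESeq2, against 6%. None was called without Degrader replicate 1, Degrader replicate 2 or DMSO replicate 2, and 1 without DMSO replicate 1. The SSR3 call under GDC0068 was lost without DMSO replicate 1, DMSO replicate 2 or GDC0068 replicate 2. With a library left out, the log2 fold change of SSR3 there ran from -0.40 to -0.27. With the block 5 genes of the list were called lower under GDC0068, against 8.91% of all genes.

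The remaining ERAD genes, 19 of 20 tested, had a median of 0.06 under Degrader and 0.05 under GDC0068. HERPUD2, the paralog of HERPUD1, rose from 50.6 ± 0.12 CPM to 63.4 ± 0.047 under Degrader (log2 fold change 0.33, SE 0.053, edgeR adjusted p = 0.00252) and to 59.0 ± 1.7 under GDC0068 (0.22, edgeR adjusted p = 0.0454). The Degrader call held without any 1 library (edgeR adjusted p up to 0.0311), and the GDC0068 call was lost without each of them (edgeR adjusted p 0.0778 to 0.227). That call was also lost without the filter on low counts (edgeR adjusted p = 0.0513), in the fit to the 4 libraries compared (edgeR adjusted p = 0.0811) and with DESeq2 (adjusted p = 0.122). UBE2G2, a ubiquitin-conjugating enzyme of ERAD, fell by 0.36 under Degrader (edgeR adjusted p = 0.00661), a call lost without Degrader replicate 2 (edgeR adjusted p = 0.0721) or DMSO replicate 1. Under GDC0068 UBE2G2 differed by -0.22 (edgeR adjusted p = 0.109; 5.14e-04 with the replicate block). These were the Degrader calls of the list, 1 higher and 1 lower of 19, against 7.39% and 7.88% of all genes; with the replicate block there were 5 higher and 3 lower, against 15.1% and 15.7%. Under GDC0068 the block gave 3 and 3 in place of 1 and 0, against 8.87% and 8.91% of all genes in place of 1.7% and 1.88%.

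On the PERK arm, 10 of 10 listed genes were tested, and under Degrader 1 rose and 2 fell, against 7.39% and 7.88% of all genes. CHAC1, a glutathione-degrading target of ATF4, changed from 6.38 ± 1.0 to 3.77 ± 0.11 CPM (log2 fold change -0.75, SE 0.185, edgeR adjusted p = 0.0192). It rested on few counts, 106 to 193 per library, and its log2 fold change ran from -0.92 to -0.59 with a library left out. CEBPB, a partner of ATF4, changed from 46.3 ± 3.5 to 34.7 ± 2.4 CPM (-0.42, edgeR adjusted p = 0.00943). ATF3, a stress-induced transcription factor, rose from 106 ± 5.0 to 128 ± 2.9 CPM (0.28, edgeR adjusted p = 0.00528). ATF4 and DDIT3, which encodes CHOP, were not called (log2 fold changes -0.13 and -0.06, edgeR adjusted p = 0.194 and 0.591), though ATF4 was with the replicate block (edgeR adjusted p = 0.0273). Under GDC0068 edgeR called 0 of these 10, with 2 at an unadjusted p under 0.05, against 20% of all genes; DESeq2 called 0 and the block 2 (1 in each direction), the latter against 17.8%. Under Degrader the block gave 3 higher and 5 lower, against 15.1% and 15.7% of all genes. Fewer were called without any 1 Degrader or DMSO library, and calls over all genes varied as well. The list median under Degrader then ran from -0.10 (without Degrader replicate 2) to -0.06 (without Degrader replicate 1). Between the drugs both edgeR and DESeq2 called 0 genes of any of the 5 lists. At an unadjusted p under 0.05, edgeR had 4 of the sensors and factors, 2 folding, 4 ERAD, 3 translocon and transport and 4 PERK arm genes, against 14.1% of all genes, and the replicate block called 1, 0, 5, 3 and 4, against 10.4%.

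**Figure D5:**
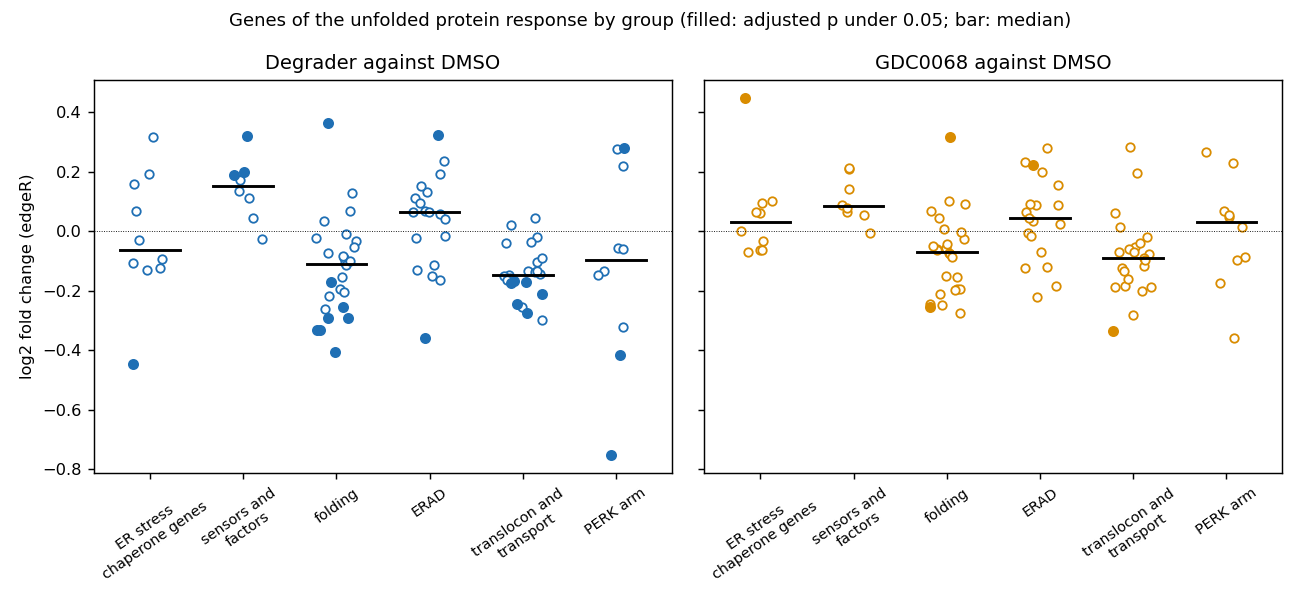
Each point is 1 gene tested, as its edgeR log2 fold change against DMSO under Degrader (left) and GDC0068 (right), by list; filled points have an adjusted p under 0.05 and bars are medians. Under Degrader the bar of sensors and factors lies at 0.15 and those of folding and of translocon and transport at -0.11 and -0.15, with the ER stress chaperone genes between them at -0.06.

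Genes with the stress element in their promoter were then grouped, whatever their list. Shares of all genes given beside them cover all 19902 genes tested, also those without a RefSeq promoter. An exact ERSE was found for 16 of the 11119 tested genes with a RefSeq promoter, with medians of -0.06 for Degrader and -0.04 for GDC0068; 2 rose and 2 fell under Degrader, against 7.39% and 7.88% of all genes. The risers were ERO1B and TMEM120A and the fallers CRELD2 and FICD, the enzyme that modifies HSPA5 (log2 fold change -0.43, edgeR adjusted p = 0.00905). ERSE-II was found for 14 genes, with medians of 0.0025 and -0.03, and again 2 rose (CNKSR1 and NUCB1) and 2 fell (SDF2L1 and the chaperone HYOU1) under Degrader. Between the drugs 12 of the 14 genes with ERSE-II and 6 of the 16 with ERSE had the higher value under Degrader, against 9727 of all 19902 genes, with medians of 0.03 and -0.03. edgeR called 0 of either group there, against 0.266% of all genes. At an unadjusted p under 0.05 there were 3 of the 14 and 2 of the 16, against 14.1% of all genes.

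The 5 genes whose centred log2 CPM over the 6 libraries lay nearest to that of HSPA5, out of 13896 candidates averaging 10 CPM or more, were GNAS, ZNF641, RUSC1, CCT8 and B3GLCT, at Euclidean distances of 0.0320 to 0.0377. GNAS encodes a G protein subunit and CCT8 a subunit of the cytosolic chaperonin. Each stood lower under Degrader by a small amount, from -0.08 for RUSC1 to -0.10 for ZNF641, and none was called. The choice used these same 6 libraries, so Degrader values close to that of HSPA5 follow from it and are no separate result. No other gene of the set was among them.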

How the data were processed

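Raw counts per gene interval were used as deposited, 1 column per library and 2 libraries per arm (DMSO, GDC0068, Degrader). That the values are counts follows from the file: whole numbers with differing totals. Per the submitters' processing notes, cutadapt 1.14, Bowtie 1.2.2, SAMtools 1.3.1, HISAT2 2.2.1 and limma and the builds hg38, GRCh38 and dm3 (fly) were used, with no role given; the counting tool, use of strand, treatment of duplicates and any spike-in scaling are not given in the sources used here. Unstated strand or duplicates can shift counts of overlapping genes and make counting error look too small.

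Starts are written counting from 1; the table names no build, and each of the 10 intervals overlaps the RefSeq gene of that name in GRCh38.p14, from which the promoters come (RefSeq). Columns were matched to samples by the labels' description. Analysis used R 4.3.3 and edgeR 4.0.16: filterByExpr (minimum count 10, total 15; 19902 genes kept, 431 removed), TMM, glmQLFit and glmQLFTest on all 6 libraries with a term per arm (3 residual degrees of freedom), Benjamini-Hochberg over all genes tested, threshold 0.05. SE is the log2 fold change over the square root of F. CPM use TMM-scaled totals. Alternatives were other scaling and filters, robust estimation, DESeq2 1.42.0, the 4 libraries compared, the replicate block and leaving out each library. Permutation of 2 against 2 libraries cannot pass 0.05, so tests rest on a spread shared across genes.

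The series describes 2 independent experiments, and same-numbered libraries deviated together from their arm means (correlations across genes of 0.273, 0.285 and 0.317 for the pairs of arms), so the replicate numbers were taken to pair the libraries; the block is given beside results it changes. Whether the DMSO, GDC0068 and Degrader dishes within an experiment were otherwise separate is not stated, so p-values measure the spread between these libraries.

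The 10 genes and the lists were chosen with earlier results of these data known. Genes named: all 10; XBP1, EIF2AK3, ATF6B, ATF4 and DDIT3; up to 3 called genes with the smallest adjusted p per list and contrast; and the 5 profiles nearest to HSPA5 (log2 of CPM plus 1). FICD, TMEM120A, CNKSR1, NUCB1 and HYOU1 were named after their values were seen.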

Additional observations from a re-analysis of the deposited data

How the results depend on the processing

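Depth limits DNAJB9 and SDF2L1 most, with counting errors of up to 6.31% and 6.61%. Over the 10 genes and 3 contrasts, alternatives other than a left-out library kept direction and side of the threshold in 227 values, took 2 calls away, added 6 (all with the replicate block) and turned 5 signs, all in values close to 0; leaving out a library kept 150, took 9 calls away and turned 21 signs of uncalled values. The cause was not tested for any of these.

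With the replicate block the counts of genes called were 6114 under Degrader (3039 without it), 3540 under GDC0068 (712) and 2065 between the drugs (53); of the 10 genes 6 were called under Degrader (1 without it) and 1 between the drugs (0). The pairing changed no other call of the 10 genes; among the other named genes it added some, each given beside its result where it bears on a statement. Between the drugs, DESeq2 called 141 genes, robust estimation 116 and the fit to 4 libraries 23. Under GDC0068, DESeq2 and the fit to 4 libraries called 0 of the 10 genes, against 1.

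Leaving out a library gave 931 to 3217 genes under Degrader, 37 to 546 under GDC0068 and 5 to 63 between the drugs, with 0 to 1, 0 and 0 of the 10 genes called. Where an arm was left with 1 library, it was assumed to vary like the others. Calls over all genes changed with the library left out, so a call lost this way does not set a gene or list apart. The medians of the 10 genes ran from -0.121 to 0.0411, from 0.00398 to 0.0518 and from -0.089 to 0.00148.

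Signs turned as follows. ERN1 under GDC0068 was -0.0026 with RLE size factors, -0.00276 without the filter, -0.0024 with DESeq2 and -0.00342 with 4 libraries. Between the drugs EDEM1 was -0.000282 and UGGT1 -0.0026 with library totals alone, and UGGT1 -7.24e-05 with the replicate block. With a library left out, values ranged under Degrader from -0.102 to 0.0398 for HSP90B1 and -0.222 to 0.0423 for CALR. Under GDC0068 the ranges were -0.0236 to 0.0502 for DDIT3, -0.00291 to 0.0971 for ATF3, -0.0996 to 0.0316 for HSPA5, -0.193 to 0.0721 for CALR, -0.0445 to 0.16 for SDF2L1, -0.0526 to 0.056 for ERN1, -0.175 to 0.015 for HSP90B1, -0.00145 to 0.187 for HERPUD1, -0.219 to 0.0142 for CEBPB and -0.415 to 0.0414 for CHAC1. Between the drugs they were -0.0452 to 0.145 for HSP90B1, -0.00371 to 0.152 for ATF6, -0.124 to 0.0844 for CALR, -0.0372 to 0.0442 for EDEM1, -0.071 to 0.00731 for XBP1, -0.0365 to 0.0392 for UGGT1, -0.00207 to 0.127 for SSR3 and -0.162 to 0.0429 for PDIA5.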
